A study of Homo sapiens with 9 samples.

Results

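10 genes for cytosolic and mitochondrial heat shock chaperones were followed: HSPA1A, HSPA1B, HSPA8, HSP90AA1, HSP90AB1, HSPH1, DNAJB1, HSPB1, HSPD1 and HSPE1. They were taken by name, and their gene IDs were matched to symbols without the version number. All 10 were found among the 60648 genes of the count table, and all 10 were among the 19473 genes with enough counts to be tested. The study asked what a circular RNA made from early exons of the survival motor neuron genes does to the RNA of HEK293-derived cells. TC4-2A cells carry a doxycycline-inducible insertion from which exon 2A through exon 4 of SMN1/2 is joined into a circle, TL4-2A cells carry one that makes a linear RNA of these exons, and parental T-REx cells carry no insertion. The paper also detected linear RNA of these exons in TC4-2A cells, as a precursor of the circle. All 3 lines, the parental one included, received doxycycline (0.1 µg/mL) for 96 h, and each gave 3 libraries of RNA depleted of ribosomal RNA. Whether a line is a single clone, and whether its libraries came from separate cultures, is not given in the sources used here, so that the p-values measure the spread between these libraries, which may be technical, and the RNA made cannot be told apart from other differences between the lines.

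Chaperones bind unfolded or partly folded proteins and release them to fold. In the cytosol, J-domain proteins such as DNAJB1 deliver clients to HSP70 and stimulate its ATPase, HSP110 proteins such as HSPH1 exchange the nucleotide of HSP70, and HSP90 takes over clients such as kinases and steroid receptors at a late stage. In mitochondria, HSPD1 and HSPE1 form the folding chamber and its lid. HSPA1A and HSPA1B are induced by heat shock factor 1, whereas HSPA8 and HSP90AB1 are made at high levels without stress, and heat shock factors bind inverted repeats of the unit GAA upstream of many of these genes.

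Libraries held from 16561680 to 21491977 counts, and TMM scaling factors lay between 0.9906 and 1.014. SMN1, part of which was placed in the insertions, averaged 74.8 ± 2.60 CPM in TC4-2A cells, 42.7 ± 1.37 CPM in TL4-2A cells and 38.4 ± 1.84 CPM in T-REx cells (CPM, the count of a gene scaled to a common library size, with SD and n = 3 libraries each, as for every ± below). SMN2 had 19.6 to 20.5 CPM in TC4-2A, 19 to 20.2 CPM in TL4-2A and 15.9 to 17.3 CPM in T-REx libraries. SMN2 is a near copy of SMN1, and how their shared reads were divided is not given. Reads of the inserted exons can be counted under these genes too, so that the values do not give the level of the cells' own SMN1 and SMN2. Of 8 genes known from HEK293 cells, including VIM, KRT8, NEFL and INA, all 8 passed the filter on low counts. NEFM, another of the 8, had only 1.29 to 2.92 CPM over the libraries. Of 8 markers of other cells only COL3A1 and GFAP passed this filter. COL3A1 had 2.76 to 5.55 CPM over the libraries, GFAP less than 1 CPM in each line, and HBB was at 0 in every library. Of all genes tested, 28.8% were called between TC4-2A and T-REx cells and 44.3% between TL4-2A and T-REx cells. A call stands for a Benjamini-Hochberg adjusted p under 0.05 over all 19473 genes from edgeR's quasi-likelihood test.

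The start site regions of the members show how close some of them are. HSPA1A and HSPA1B, neighbours on chromosome 6, were compared because their transcripts and promoters are near copies. Their windows of 300 bases, most of them upstream of the RefSeq start site and 50 from it on, were 92.0% identical, and 75.1% of the 50-base windows of the HSPA1A transcript occurred in HSPA1B as well. The sequences of HSPA8, HSP90AB1 and HSPD1 are shown beside them because each has a window with 3 inverted units in a row. The HSPA1 windows do not have 3 in a row. HSP90AB1 also has windows at 44245944 to 44246243 and 44246851 to 44247150, and HSPD1 at 197500225 to 197500524, without any inverted pair. Sequences are from RefSeq, build GRCh38.p14, 5′ to 3′ on the strand of the gene, and capitals mark inverted units, that is GAANNTTC or TTCNNGAA, joined where they overlap.
HSPA1A, chr6:31815293-31815592, plus strand: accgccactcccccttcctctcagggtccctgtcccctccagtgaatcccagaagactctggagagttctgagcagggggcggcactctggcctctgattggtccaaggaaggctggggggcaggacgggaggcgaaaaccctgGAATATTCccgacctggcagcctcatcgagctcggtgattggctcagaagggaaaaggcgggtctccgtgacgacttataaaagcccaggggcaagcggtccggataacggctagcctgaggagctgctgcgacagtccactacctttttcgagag
HSPA1B, chr6:31827488-31827787, plus strand: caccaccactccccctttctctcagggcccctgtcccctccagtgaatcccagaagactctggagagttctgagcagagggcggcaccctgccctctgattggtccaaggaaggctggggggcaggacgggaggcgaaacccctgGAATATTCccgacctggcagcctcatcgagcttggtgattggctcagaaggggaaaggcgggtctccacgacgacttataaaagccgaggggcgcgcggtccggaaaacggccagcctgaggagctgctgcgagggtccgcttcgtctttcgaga
HSPA8, chr11:123062087-123062386, minus strand: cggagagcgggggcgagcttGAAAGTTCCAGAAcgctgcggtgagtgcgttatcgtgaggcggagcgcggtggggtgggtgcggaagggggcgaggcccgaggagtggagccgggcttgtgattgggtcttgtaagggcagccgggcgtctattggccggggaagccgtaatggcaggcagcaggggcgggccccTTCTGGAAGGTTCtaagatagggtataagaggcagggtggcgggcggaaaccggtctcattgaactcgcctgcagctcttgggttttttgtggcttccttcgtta
HSP90AB1, chr6:44247693-44247992, plus strand: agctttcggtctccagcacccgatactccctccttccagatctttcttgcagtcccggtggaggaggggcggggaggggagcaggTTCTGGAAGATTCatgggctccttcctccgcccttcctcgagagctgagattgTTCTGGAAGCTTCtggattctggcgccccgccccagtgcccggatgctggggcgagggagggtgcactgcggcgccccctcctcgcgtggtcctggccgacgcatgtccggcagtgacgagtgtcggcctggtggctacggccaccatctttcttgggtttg
HSPD1, chr2:197499791-197500090, minus strand: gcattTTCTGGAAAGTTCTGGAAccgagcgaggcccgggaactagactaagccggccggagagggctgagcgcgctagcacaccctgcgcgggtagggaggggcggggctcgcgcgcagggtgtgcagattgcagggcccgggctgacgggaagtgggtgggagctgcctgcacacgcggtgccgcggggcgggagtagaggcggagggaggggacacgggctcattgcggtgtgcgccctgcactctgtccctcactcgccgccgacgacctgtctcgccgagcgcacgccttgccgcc
In HSPA1A the capitals lay at -106 to -99 and in HSPA1B at -105 to -98, counted from the start site as 0. HSPA8 had a run of 13 bases at -230 to -218 and another at -55 to -43. In the HSP90AB1 window shown, runs of 13 bases lay at -165 to -153 and at -112 to -100, and the HSPD1 window held 1 run of 18 bases at -245 to -228.

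Over all 35116 RefSeq promoter windows of this length, 13.5% held at least 1 inverted pair and 0.49% held 3 units (GAANNTTCNNGAA or TTCNNGAANNTTC, each of which contains a pair; a match on one strand is a match on the other). The members had 16 windows, of which 9 held a pair and 4 held 3 units. The pair was found in at least 1 window of 8 members, that is of all but HSPH1 and HSPE1. For HSPE1 this holds for its own window only, which runs from 197500129 to 197500428. The HSPD1 window with 3 units ends at 197500090, so that its run lies outside the HSPE1 window, on the side before its first base. At least 1 window of HSPA8, HSP90AA1, HSP90AB1 and HSPD1 held 3 units. A match describes letters only.

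Levels between genes were compared per kilobase of the exons of all annotated transcripts. In T-REx cells HSP90AB1, the constitutive cytosolic HSP90, was highest with 660.1 CPM per kb. HSP90AA1, the inducible one, followed with 450.8 CPM per kb, and HSPA8, the constitutive HSP70, with 201.2 CPM per kb. HSPA1B had 123.5, HSPD1 86.6 and HSPH1 18.1 CPM per kb. DNAJB1 with 9.30 and HSPE1 with 9.11 CPM per kb overlapped between libraries, and HSPB1 with 7.64 and HSPA1A with 3.06 CPM per kb came last. Apart from DNAJB1 and HSPE1, neighbours in this order did not overlap in any T-REx library. The order also depends on the lengths used, which the spread of libraries does not reflect. HSPD1 was divided by 7.629 kb, while its Ensembl canonical transcript has 2245 bases. For DNAJB1 these were 8.188 kb and 2242 bases, and for HSPA1B 2.517 kb and 2517 bases. HSPE1 stood far below its partner HSPD1 on this scale. Its exons are shared with those of the readthrough gene HSPE1-MOB4 over 10.5% and run against HSPD1 exons over 7.4% of their length, and 48.2% of its 50-base windows recur in other genes, so that its level depends on how such reads were assigned. The same holds for HSPA1B, with 36.6% of its exons under those of the unnamed gene ENSG00000285565 on the same strand and 73.6% of its 50-base windows in other genes, most of them in HSPA1A. Summed, the 10 members took 7133.8 ± 90.0 CPM in TC4-2A cells, 6684.9 ± 104.6 CPM in TL4-2A cells and 6476.4 ± 126.9 CPM in T-REx cells, or 0.713%, 0.668% and 0.648% of counts. RNA was measured in bulk, so that fewer expressing cells and less RNA per cell cannot be told apart.

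**Figure D1:**
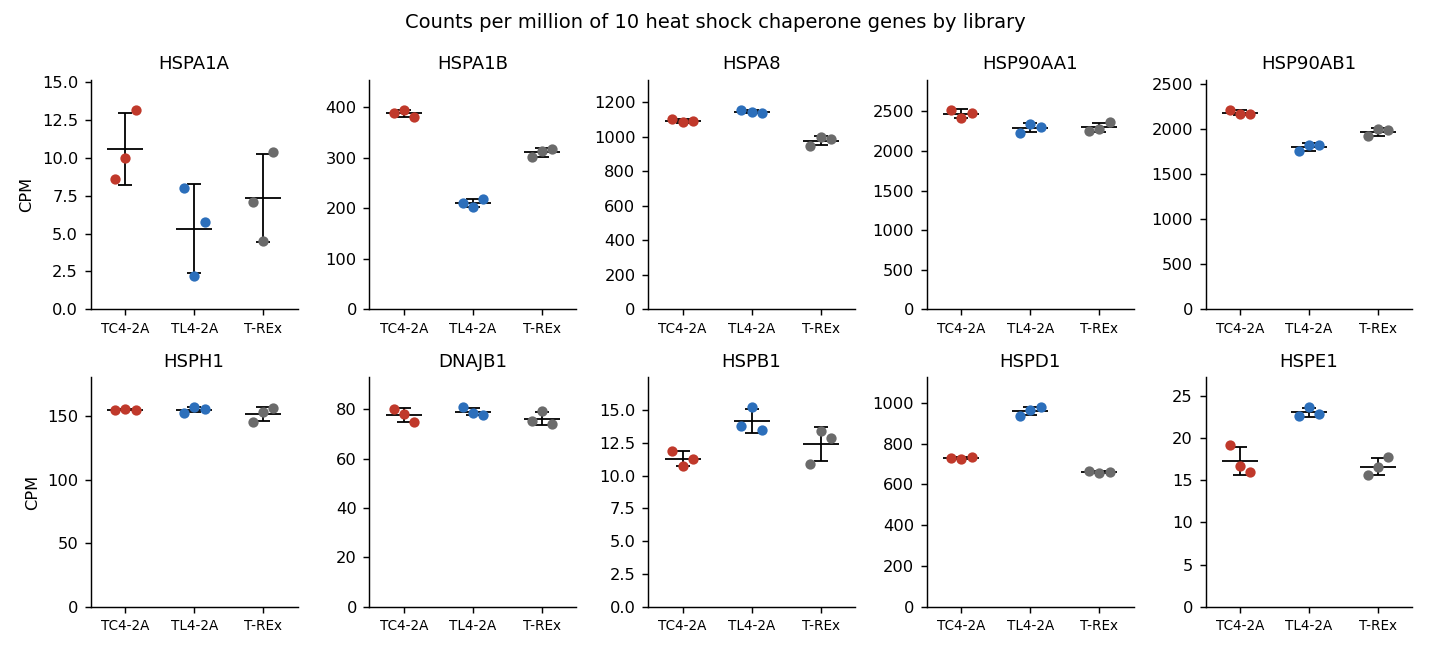
CPM (linear axes from 0) of the 10 chaperone genes in each library of the 3 lines; points are libraries, bars the mean and SD of 3. HSPA1B was lowest in TL4-2A cells and highest in TC4-2A cells, while HSPD1 and HSPE1 were highest in TL4-2A cells and HSPH1 and DNAJB1 overlapped in all 3 lines.

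In TC4-2A cells 6 of the 10 members rose against T-REx cells, where 14.2% of all genes tested rose, and 0 fell, where 14.6% did. No member fell at an unadjusted p under 0.05 from edgeR or in the DESeq2 fit either. The members that rose were the HSP70 genes HSPA1A, HSPA1B and HSPA8, the HSP90 genes HSP90AA1 and HSP90AB1, and HSPD1. The median log2 fold change of the 10 was 0.12, against 0.00 over all genes tested. HSPA8, HSP90AA1, HSP90AB1 and HSPD1 were called at log2 changes of 0.16, 0.11, 0.15 and 0.14, each with a standard error of 0.03. Over all genes called in this comparison the median absolute log2 change was 0.253. Small changes pass more easily at such high counts, which the share of all genes tested does not take into account. In TL4-2A cells 3 members rose (HSPA8, HSPD1 and HSPE1), beside 21.9% of all genes, and 2 fell (HSPA1B and HSP90AB1), beside 22.5%. Their median log2 fold change was 0.04. The T-REx libraries serve in both of these comparisons. Set against each other directly, TC4-2A cells had 4 members higher than TL4-2A cells (17.6% of all genes were) and 3 lower (17.8% of all genes), and the median was -0.01.

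**Figure D2:**
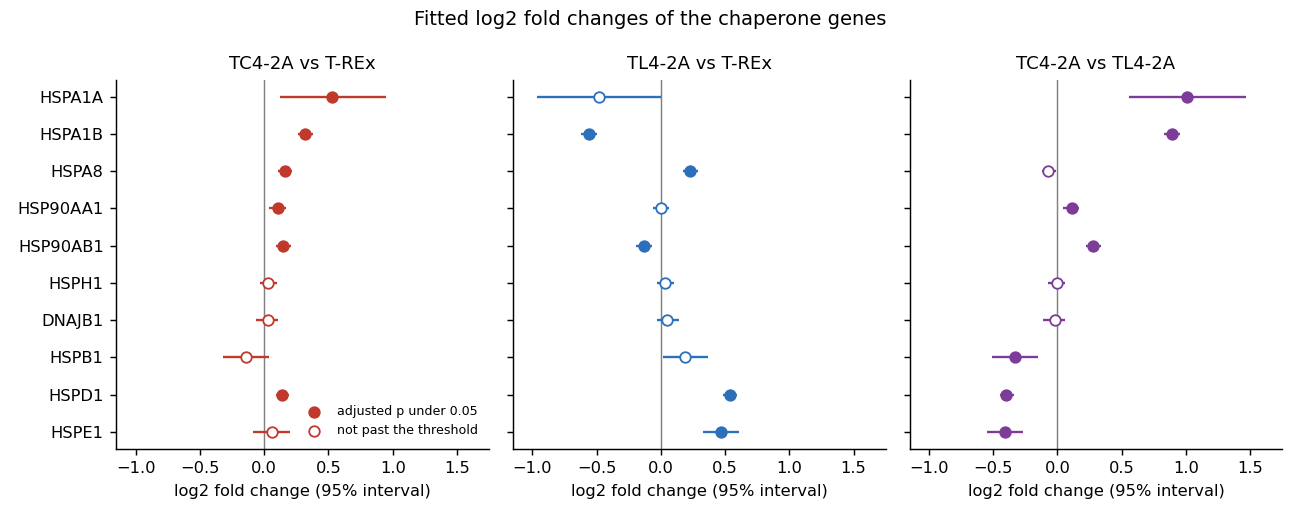
Fitted log2 fold changes of the 10 chaperone genes with 95% intervals from edgeR, for each line against T-REx and for the direct comparison of both lines; filled points passed the adjusted p of 0.05, open points did not. HSPA1B lay at 0.32 and -0.56 in the comparisons with T-REx cells and at 0.89 between the lines, whereas HSPD1 lay at 0.14, 0.54 and -0.40.

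HSPA1B (ENSG00000204388.7, chromosome 6, 31827738 to 31830254 of GRCh38) encodes the major heat-inducible HSP70. It had 388.9, 395.7 and 380.4 CPM in TC4-2A libraries, 210.9, 201.8 and 218.3 CPM in TL4-2A libraries, and 301.6, 313.6 and 317.2 CPM in T-REx libraries. The 3 lines did not overlap in any library, with TC4-2A cells above and TL4-2A cells below T-REx cells. On the log2 scale HSPA1B rose by 0.32 in TC4-2A cells (standard error 0.03, edgeR adjusted p = 2.18e-11) and fell by 0.56 in TL4-2A cells (standard error 0.03, adjusted p = 7.27e-18). The difference between TC4-2A and TL4-2A cells was 0.89 (95% interval 0.83 to 0.95, adjusted p = 5.82e-24), which is 1.85-fold. Its 20 nearest tested genes had a median log2 fold change of 0.04 in TC4-2A cells, and of -0.06 with TL4-2A.

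HSPA1A (ENSG00000204389.10, chromosome 6, 31815543 to 31817946) encodes the same protein as HSPA1B. Its counts were 172, 210 and 245 in TC4-2A libraries, 132, 41 and 95 in TL4-2A libraries, and 134, 98 and 200 in T-REx libraries. TC4-2A and T-REx libraries overlapped, as did TL4-2A and T-REx libraries, while every TC4-2A library lay above every TL4-2A library in CPM. It took only 2.63% of the counts of both genes in TC4-2A, 2.41% in TL4-2A and 2.28% in T-REx cells, and how reads of the shared sequence were divided is not given, so its own level is uncertain. The log2 fold change was 0.53 in TC4-2A cells (standard error 0.20, adjusted p = 0.0465), a call lost without T-REx replicate 1 (adjusted p = 0.11), T-REx replicate 2 (adjusted p = 0.392), TC4-2A replicate 2 (adjusted p = 0.0561), TC4-2A replicate 3 (adjusted p = 0.254) or TL4-2A replicate 3 (adjusted p = 0.0605), and with DESeq2 (adjusted p = 0.555). In TL4-2A cells it was -0.48 (95% interval -0.96 to 0.00, adjusted p = 0.101), and its size changed much with the library left out. It was -0.75 without T-REx replicate 2 (adjusted p = 0.00938) and -0.90 without TL4-2A replicate 1 (adjusted p = 0.00448), but -0.14 without T-REx replicate 3 (adjusted p = 0.70) and -0.08 without TL4-2A replicate 2 (adjusted p = 0.794). Between TC4-2A and TL4-2A cells HSPA1A differed by 1.01 (95% interval 0.56 to 1.47, adjusted p = 0.000395), with 0.61 without TL4-2A replicate 2 and 1.44 without TL4-2A replicate 1. Added to HSPA1B, the pair had 398.9 ± 6.15 CPM in TC4-2A, 215.7 ± 10.4 CPM in TL4-2A and 318.2 ± 9.45 CPM in T-REx cells, and its log2 fold changes of 0.33 and -0.56 were called in both comparisons with T-REx cells.

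HSPA8 (ENSG00000109971.14, chromosome 11, 123057489 to 123063230), the constitutive HSP70 of the cytosol, rose in both lines. Its values were 1104.8, 1083.3 and 1087.7 CPM in TC4-2A libraries, 1156.2, 1141.5 and 1136.0 CPM in TL4-2A libraries, and 945.7, 997.2 and 984.3 CPM in T-REx libraries. Every library of TC4-2A and TL4-2A cells lay above every T-REx library. HSPA8 rose by 0.16 on the log2 scale in TC4-2A cells (standard error 0.03, adjusted p = 1.72e-05) and by 0.23 in TL4-2A cells (standard error 0.03, adjusted p = 1.32e-08). Its 20 neighbours had medians of -0.11 and -0.20 there, of the opposite sign. Between TC4-2A and TL4-2A cells HSPA8 differed by -0.07 (95% interval -0.12 to -0.01, adjusted p = 0.0547), just short of the threshold.

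HSP90AB1 (ENSG00000096384.20, chromosome 6, 44246166 to 44253888), the constitutive HSP90, moved in the same directions as HSPA1B. TC4-2A cells had 2212.1, 2165.2 and 2163.3 CPM, TL4-2A cells 1750.8, 1819.8 and 1821.7 CPM, and T-REx cells 1916.8, 1993.6 and 1990.5 CPM. The 3 lines did not overlap, in the order TC4-2A, T-REx, TL4-2A from high to low. HSP90AB1 rose by 0.15 in TC4-2A cells (standard error 0.03, adjusted p = 0.000132) and fell by 0.13 in TL4-2A cells (standard error 0.03, adjusted p = 0.000418), on the log2 scale. Directly, TC4-2A exceeded TL4-2A cells by 0.28 (95% interval 0.22 to 0.34, adjusted p = 5.75e-10). Its neighbours had medians of 0.06 and -0.09 against T-REx cells.

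HSP90AA1 (ENSG00000080824.19, chromosome 14, 102080742 to 102139699), the inducible HSP90, had 2523.3, 2415.4 and 2480.6 CPM in TC4-2A libraries, 2233.7, 2346.7 and 2308.9 CPM in TL4-2A libraries, and 2255.5, 2273.4 and 2364.6 CPM in T-REx libraries. TC4-2A libraries lay above all others, and TL4-2A and T-REx libraries overlapped. HSP90AA1 rose by 0.11 on the log2 scale in TC4-2A cells (standard error 0.03, adjusted p = 0.00709). In TL4-2A cells it differed by 0.00 (95% interval -0.06 to 0.06, adjusted p = 0.987). The difference between TC4-2A and TL4-2A cells was 0.11 (95% interval 0.04 to 0.17, adjusted p = 0.00543).

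Among the partners of HSP70 and the small heat shock proteins, no member passed the test against T-REx cells. HSPH1 (ENSG00000120694.20, chromosome 13), the HSP110 nucleotide exchange factor, averaged 155.1 ± 0.277 CPM in TC4-2A, 155.1 ± 2.27 CPM in TL4-2A and 151.8 ± 5.40 CPM in T-REx cells. Its interval was -0.03 to 0.10 on the log2 scale in both comparisons with T-REx cells. DNAJB1 (ENSG00000132002.9, chromosome 19), the main J-domain partner of inducible HSP70, averaged 77.6 ± 2.68 CPM in TC4-2A, 79.0 ± 1.50 CPM in TL4-2A and 76.1 ± 2.65 CPM in T-REx cells. Its log2 intervals were -0.06 to 0.11 in TC4-2A cells and -0.03 to 0.14 in TL4-2A cells. Smaller differences lie within these bounds.

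HSPB1 (ENSG00000106211.10, chromosome 7), the small heat shock protein HSP27, had 11.9, 10.7 and 11.3 CPM in TC4-2A libraries, 13.8, 15.2 and 13.5 CPM in TL4-2A libraries, and 10.9, 13.4 and 12.9 CPM in T-REx libraries. TL4-2A cells lay above both other lines in every library, though by little over the highest T-REx library, and TC4-2A and T-REx libraries overlapped. The log2 fold change was -0.14 in TC4-2A cells (95% interval -0.32 to 0.04, adjusted p = 0.262) and 0.19 in TL4-2A cells (95% interval 0.02 to 0.37, adjusted p = 0.069). Without T-REx replicate 2 the second of these was called (adjusted p = 0.0383). TC4-2A cells were lower than TL4-2A cells by -0.33 on the log2 scale (standard error 0.09, adjusted p = 0.00298).

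The mitochondrial pair had its largest difference in TL4-2A cells. HSPD1 (ENSG00000144381.18, chromosome 2, 197486584 to 197516737), the HSP60 chamber, had 728.0, 724.1 and 733.1 CPM in TC4-2A libraries, 935.1, 966.0 and 977.3 CPM in TL4-2A libraries, and 664.5, 657.9 and 660.3 CPM in T-REx libraries. No libraries of different lines overlapped, and TL4-2A cells were highest. HSPD1 rose by 0.54 on the log2 scale in TL4-2A cells (standard error 0.03, adjusted p = 1.23e-18), which is 1.45-fold, and by 0.14 in TC4-2A cells (standard error 0.03, adjusted p = 8.74e-05). HSPD1 was lower in TC4-2A than in TL4-2A cells by -0.40 (95% interval -0.45 to -0.34, adjusted p = 5.51e-15).

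HSPE1 (ENSG00000115541.11, chromosome 2, 197500140 to 197503449), the HSP10 lid, starts beside HSPD1 on the other strand. It had 19.1, 16.7 and 16 CPM in TC4-2A libraries, 22.6, 23.6 and 22.8 CPM in TL4-2A libraries, and 15.6, 16.5 and 17.7 CPM in T-REx libraries. TL4-2A libraries lay above all others, and TC4-2A and T-REx libraries overlapped. On the log2 scale HSPE1 rose by 0.47 in TL4-2A cells (standard error 0.07, adjusted p = 7.18e-07), and differed by 0.06 in TC4-2A cells (95% interval -0.09 to 0.20, adjusted p = 0.593). In the direct comparison TC4-2A cells were lower than TL4-2A cells by -0.41 (95% interval -0.55 to -0.27, adjusted p = 7.62e-06). Its pseudogenes held 974 counts over the 9 libraries, or 23.3% of the counts of HSPE1 and pseudogenes together, led by HSPE1P13 with 268 and HSPE1P11 with 238 counts, against at most 1.19% for any other member, and with them added the rise in TL4-2A cells was 0.47 again. HSPD1P11 held 859 and HSPD1P1 370 counts, and the HSPA8 pseudogenes HSPA8P3 and HSPA8P15 held 401 and 187.

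Most tested genes around HSPD1 and HSPE1 on chromosome 2 were higher in TL4-2A cells. Of the 20 tested genes nearest to HSPD1, 10 on either side, 15 rose and 1 fell in TL4-2A cells, with a median log2 fold change of 0.50, and of those nearest to HSPE1 16 rose and 1 fell, with a median of 0.52. These sets overlap, and HSPD1 and HSPE1 each count among the neighbours of the other, so that the counts are not separate observations. In TC4-2A cells the medians were -0.08 for both, and 1 and 2 neighbours rose while 4 and 4 fell. Between TC4-2A and TL4-2A cells 18 of 20 neighbours of each gene were lower. Both mitochondrial members thus stood close to their neighbours in TL4-2A cells, and what part the neighbourhood had in their rise was not tested. For the other 8 members the neighbour medians against T-REx cells ran only between -0.20 and 0.13.

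**Figure D3:**
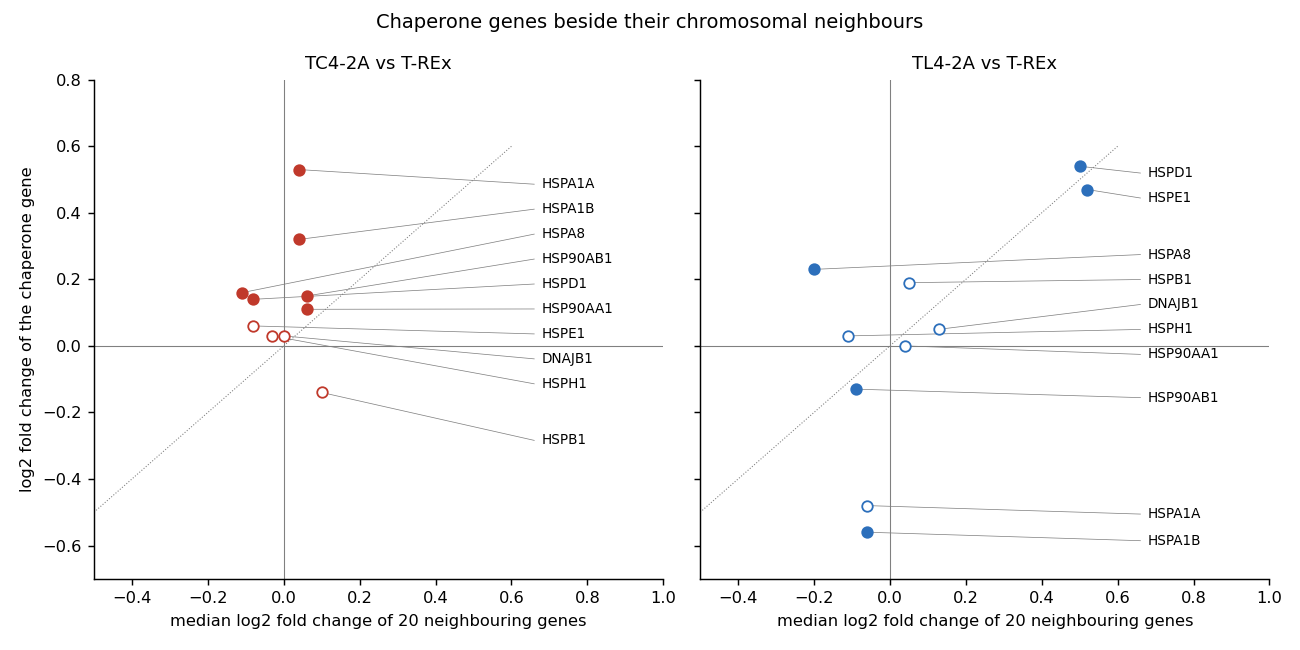
Log2 fold change of each chaperone gene against the median log2 fold change of its 20 nearest tested genes, for TC4-2A and TL4-2A against T-REx cells; filled points passed the test, grey lines lead to the names, and on the dotted line gene and neighbours are equal. HSPD1 and HSPE1 lay near that line in TL4-2A cells at neighbour medians of 0.50 and 0.52, while HSPA1B lay at -0.56 with its neighbours at -0.06.

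Genes most like each member over the 9 libraries were looked for among 6983 non-member genes that averaged at least 5 log2 CPM, by the root mean square difference of centred log2 CPM. The 2 closest to HSPD1 were HNRNPA3 (0.026) and PSMD1 (0.028), and those closest to HSPE1 were PPP1R7 (0.054) and STRADB (0.059). All 4 lie on chromosome 2 like HSPD1 and HSPE1. RND2 on chromosome 17 (0.071) and SF3B3 on chromosome 16 (0.077) were closest to HSPA1B, SLC3A2 (0.027) and CHAF1B (0.028) to HSP90AB1, STRN4 (0.021) and PHF8 (0.022) to HSPA8, and IPO11 and CLNS1A (both 0.024) to HSP90AA1. HSPH1 was followed by SERBP1 and CCNT1 (both 0.017), DNAJB1 by TBC1D31 (0.019) and ATPAF1 (0.023), and HSPB1 by CDCA3 (0.060) and SERPINE2 (0.067). Closest to HSPA1A were FNIP2 at 0.539 and PPID at 0.551. HSPA1A varied by 22.2% to 55% (coefficient of variation) within a line, at lower levels than the candidates. Its large distances therefore cannot show that no gene shares its pattern.

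Libraries of 1 line differed little in the members as a group. In T-REx replicate 1 only 2 of 10 members lay above the line mean and in T-REx replicate 3 8 of 10 did, but the median deviations of all 9 libraries stayed between -0.04 and 0.04 on the log2 scale. HSPA1A had the largest deviation in 7 of 9 libraries, up to 1.06 in TL4-2A replicate 2, the library with 41 counts. The coefficient of variation of HSPA1A within a line was 22.2% in TC4-2A, 55.0% in TL4-2A and 40.1% in T-REx cells, while that of HSPA1B was at most 3.92% in any line.

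The rest of the HSP70 family moved in both directions. Of 9 other HSP70 and HSP110 genes 6 were tested. In TC4-2A cells 2 rose and 2 fell, beside 14.2% and 14.6% of all genes tested. In TL4-2A cells 0 rose and 1 fell, beside 21.9% and 22.5%. HSPA9, the mitochondrial HSP70, rose by 0.16 on the log2 scale in TC4-2A cells (616.6 ± 16.7 CPM, against 550.0 ± 10.5 CPM in T-REx cells, adjusted p = 9.62e-06), and HSPA14 by 0.15 (adjusted p = 0.021, a call lost in 6 of 15 alternatives). HSPA2, known from the testis, fell by 0.87 in TC4-2A cells (6.04 ± 0.300 CPM, against 11 ± 0.624 CPM in T-REx cells, adjusted p = 8.43e-09). HSPA12A, a distant relative, fell by 0.35 in TC4-2A cells (adjusted p = 9.05e-08), where its neighbours on chromosome 10 had a median of -0.67. HSPA4L, an HSP110 gene, fell by 0.24 in TL4-2A cells (adjusted p = 5.05e-06), and HSPA4, another, differed by 0.05 in both lines (adjusted p = 0.217 with TC4-2A and 0.102 with TL4-2A). HSPA6, an HSP70 that human cells make almost only after heat, had 4 to 11 counts in each library and was not tested, as were HSPA1L and HSPA12B.

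Of the 4 genes of the same families in the endoplasmic reticulum, 2 rose and 1 fell in TC4-2A cells. Of all genes 14.2% and 14.6% did. In TL4-2A cells 3 of the 4 rose and 0 fell, beside 21.9% and 22.5%. HSPA5, the HSP70 known as BiP, averaged 495.2 ± 6.31 CPM in TC4-2A, 680.3 ± 3.39 CPM in TL4-2A and 496.6 ± 16.4 CPM in T-REx cells, and rose by 0.45 on the log2 scale in TL4-2A cells (adjusted p = 2.72e-16). HYOU1, the HSP110 of this compartment, rose by 0.37 in TL4-2A cells (adjusted p = 8.33e-14) and by 0.07 in TC4-2A cells (adjusted p = 0.0426, a call lost in 10 of 15 alternatives). HSP90B1, the HSP90 known as GRP94, fell by 0.27 in TC4-2A cells (adjusted p = 8.2e-09) and rose by 0.12 in TL4-2A cells (adjusted p = 0.00132), the reverse of HSP90AB1 in both lines. HSPA13 rose by 0.27 in TC4-2A cells (adjusted p = 4.79e-05), with its neighbours on chromosome 21 at 0.32.

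Cochaperones changed in both directions. Of 15 J-domain genes tested 6 rose and 1 fell in TC4-2A cells, beside 14.2% and 14.6% of all genes. In TL4-2A cells 7 rose and 2 fell, beside 21.9% and 22.5%. DNAJA1, a cytosolic partner of HSPA8, rose by 0.18 in TC4-2A cells (adjusted p = 2.48e-05) and by 0.25 in TL4-2A cells (adjusted p = 2.44e-08). DNAJB6, which holds back aggregation, rose by 0.52 in TC4-2A cells (adjusted p = 1.25e-13), and DNAJC2 by 0.39 (adjusted p = 1.86e-10), with neighbours on chromosome 7 at 0.38 and 0.34. Among 10 nucleotide exchange factors 2 rose and 1 fell in TC4-2A cells, and 1 rose and 1 fell in TL4-2A cells. The shares of all genes are those given for the J-domain genes. BAG3, which is also a heat shock target, fell by 0.50 in TC4-2A cells (adjusted p = 1.18e-10), where its neighbours on chromosome 10 had a median of -0.47, and fell by 0.13 in TL4-2A cells (adjusted p = 0.0265, a call lost in 6 of 15 alternatives). BAG1 rose by 0.15 with TC4-2A (adjusted p = 0.0233, a call lost in 4 of 15 alternatives) and by 0.17 (adjusted p = 0.00812) with TL4-2A, and GRPEL1, the exchange factor of mitochondrial HSP70, rose by 0.13 in TC4-2A cells (adjusted p = 0.0472, a call lost in 7 of 15 alternatives).

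Of 20 HSP90 cochaperones 10 rose and 1 fell in TC4-2A cells, beside 14.2% and 14.6% of all genes. In TL4-2A cells 8 rose and 4 fell, beside 21.9% and 22.5%. STUB1, a ubiquitin ligase that acts on chaperone clients, rose by 0.35 in TC4-2A cells (adjusted p = 2.32e-10) and by 0.30 in TL4-2A cells (adjusted p = 7.54e-09). SUGT1, which links HSP90 to clients, rose by 0.28 (adjusted p = 2.23e-08) and by 0.39 (adjusted p = 9.06e-12) there. FKBP4, an immunophilin of steroid receptor complexes, rose by 0.42 in TL4-2A cells (adjusted p = 4.19e-15), with its neighbours on chromosome 12 at 0.41. In the cytosolic chaperonin TRiC and its partner prefoldin 5 of 14 genes rose and none fell in TC4-2A cells, by 0.17 or less. With TL4-2A 4 rose and 2 fell, and the shares of all genes are those given for the HSP90 cochaperones. The TRiC subunits CCT7 and CCT6A rose in both lines, by 0.14 and 0.17 in TC4-2A cells and by 0.19 and 0.13 with TL4-2A. CCT8, another subunit, rose by 0.08 in TC4-2A cells (adjusted p = 0.028, a call lost in 5 of 15 alternatives) and fell by 0.19 in TL4-2A cells (adjusted p = 4.9e-07).

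Of 12 mitochondrial chaperones and proteases other than the members 7 rose and none fell in TC4-2A cells. Of all genes 14.2% and 14.6% did. In TL4-2A cells 3 of the 12 rose and 1 fell, beside 21.9% and 22.5%. HSPA9 is among the 12 and was also counted in the HSP70 family above, so that these counts are not separate from the earlier ones. TRAP1, the HSP90 of mitochondria, averaged 404.8 ± 7.22 CPM in TC4-2A, 342.3 ± 7.82 CPM in TL4-2A and 350.0 ± 9.91 CPM in T-REx cells, and rose by 0.21 in TC4-2A cells (adjusted p = 1.24e-07). SPG7, a protease of the inner membrane, rose by 0.30 in TC4-2A cells (adjusted p = 4.28e-08) and by 0.14 in TL4-2A cells (adjusted p = 0.00229, a call lost in 1 of 15 alternatives).

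**Figure D4:**
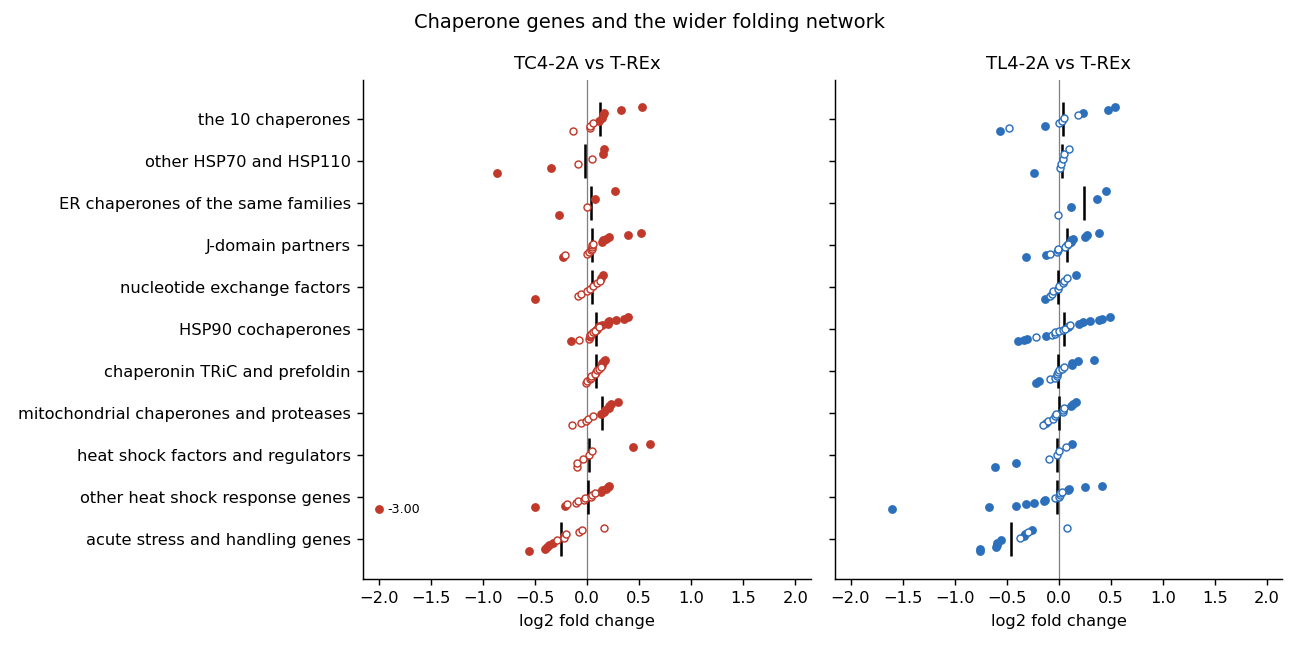
Log2 fold changes of the 10 chaperones and of 10 lists of related genes in TC4-2A and TL4-2A against T-REx cells; each point is a gene tested, filled where the adjusted p was under 0.05, and black bars are list medians. HSPB8 lies beyond the axis in TC4-2A cells and carries its value of -3.0. The acute stress genes had medians of -0.25 and -0.46.

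Of 7 heat shock factors and regulators tested, 2 rose and 0 fell in TC4-2A cells, beside 14.2% and 14.6% of all genes. In TL4-2A cells 1 rose and 2 fell, beside 21.9% and 22.5%. HSF1, the main driver of heat shock genes, averaged 41.1 ± 2.20 CPM in TC4-2A, 43.5 ± 2.83 CPM in TL4-2A and 39.7 ± 1.98 CPM in T-REx cells. Its log2 fold change was 0.05 in TC4-2A cells (adjusted p = 0.513) and 0.13 in TL4-2A cells (adjusted p = 0.0448), and the call in TL4-2A cells was lost in 5 of 15 alternatives. HSF2 had -0.10 (adjusted p = 0.133) in TC4-2A and -0.09 (adjusted p = 0.173) in TL4-2A cells. HSBP1, which binds heat shock factor 1 and restrains it, fell by 0.61 in TL4-2A cells (74.5 ± 2.25 CPM, against 113.9 ± 3.71 CPM in T-REx cells, adjusted p = 2.04e-15), with its neighbours on chromosome 16 at -0.41. SSBP1, which binds single-stranded DNA in mitochondria, rose by 0.60 in TC4-2A cells (adjusted p = 1.19e-14), with its neighbours on chromosome 7 at 0.49. HSF4 rose by 0.44 in TC4-2A cells from few counts (3.67 ± 0.285 CPM there, adjusted p = 0.047, a call lost in 6 of 15 alternatives), HSF2BP fell by 0.41 in TL4-2A cells (adjusted p = 0.011, a call lost in 2 of 15 alternatives), HIKESHI, which carries HSP70 into the nucleus, had adjusted p = 0.288 with TC4-2A and 0.809 with TL4-2A, and HSF5 was not tested.

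Of 16 other genes known from the heat shock response 5 rose and 3 fell in TC4-2A cells, with a median of 0.01. Of all genes 14.2% and 14.6% did. In TL4-2A cells 4 of the 16 rose and 7 fell, beside 21.9% and 22.5%, with a median of -0.02. FKBP4 and BAG3 are among the 16 and were also counted with the cochaperones above. IER5, an early target of heat shock factor 1, fell by 0.41 in TL4-2A cells (adjusted p = 8.16e-09). HSPB8, a small heat shock protein that works with BAG3, had 3, 6 and 3 counts in TC4-2A libraries, 12, 11 and 5 in TL4-2A libraries, and 23, 42 and 34 in T-REx libraries. Its libraries did not overlap with those of T-REx cells, and on the log2 scale it fell by 3.0 in TC4-2A cells (adjusted p = 5.82e-08) and fell by 1.6 with TL4-2A (adjusted p = 8.08e-05), at counts too low for a precise size. Of the 8 other small heat shock proteins only HSPB8 and HSPB6 had enough counts to be tested, and HSPB6 passed in neither line.

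Of 12 genes that respond quickly to handling or stress 6 fell and 0 rose in TC4-2A cells in the edgeR test. Of all genes 14.6% fell and 14.2% rose there. In TL4-2A cells 9 of the 12 fell and 0 rose, beside 22.5% and 21.9% of all genes. Of those that did not pass, HMOX1, an enzyme of heme breakdown, differed by 0.16 on the log2 scale in TC4-2A cells (adjusted p = 0.32), and MT2A, a metallothionein, had 0.08 in TL4-2A cells (adjusted p = 0.494). ATF3 averaged 28.3 ± 0.735 CPM in TC4-2A, 27.6 ± 1.64 CPM in TL4-2A and 41.7 ± 1.52 CPM in T-REx cells (adjusted p = 1.17e-11 and 2.77e-12), JUN fell by 0.22 and 0.33 on the log2 scale, and JUNB by 0.37 and 0.76. HSPA1B, by contrast, differed in opposite directions in the 2 lines, and what part acute handling had in its level was not tested. Of the 8 HEK293 markers 6 fell in TC4-2A cells and 5 fell in TL4-2A cells, beside 14.6% and 22.5% of all genes. In either line 0 of them rose, beside 14.2% and 21.9%. KRT8, NEFL and VIM fell in both, by 0.34, 0.84 and 0.30 in TC4-2A cells and by 0.75, 0.72 and 0.17 in TL4-2A cells, while PAX2 had 0.24 (adjusted p = 0.098) and INA 0.05 (adjusted p = 0.491) in TC4-2A cells. Of the 2 markers of other cells that were tested, 0 passed in TC4-2A cells, and 1 rose and 1 fell in TL4-2A cells. COL3A1, a fibroblast collagen, had 4.03 ± 0.224 CPM in TC4-2A, 5.07 ± 0.543 CPM in TL4-2A and 3.21 ± 0.616 CPM in T-REx cells, and it lies on chromosome 2, with its neighbours at 0.40 in TL4-2A cells, where it rose by 0.66 (adjusted p = 0.000511). GFAP, a filament of astrocytes, had 0.708 ± 0.320 CPM in TC4-2A, 0.258 ± 0.134 CPM in TL4-2A and 0.672 ± 0.021 CPM in T-REx cells, and its log2 fold change in TL4-2A cells was -1.39 (adjusted p = 0.014, a call lost in 2 of 15 alternatives).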

How the data were processed

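RNA of 9 libraries, 3 of each line, was analysed. Per the labels and the paper, the authors prepared strand-specific libraries from RNA depleted of ribosomal RNA, mapped paired-end reads to GRCh38 with HISAT2 and assigned them to Gencode v33 genes with featureCounts. The deposited values are raw counts per gene, from 16561680 to 21491977 per library, which sets the precision. For their tool versions, strand setting and treatment of multimapping reads, the value is not given in the sources used here. Columns named for the circular and the linear RNA were matched to TC4-2A and TL4-2A through the study's description of the lines. The authors' DESeq2 tables of fold changes and p-values were not used.

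Counts of 60648 genes were used, and 3 damaged lines were left out. Symbols, positions and exon lengths came from Gencode v44 (GRCh38), which held 99.69% of IDs. The members and the gene lists were chosen with earlier results of these data known. Genes were filtered with filterByExpr over the 3 lines, scaled by TMM and tested 2-sided with edgeR 4.0.16 (limma 3.58.1, R 4.3.3), 1 quasi-likelihood fit of all 9 libraries with a term per line, with Benjamini-Hochberg adjustment over 19473 genes and a threshold of 0.05. The test was tested on simulated data. CPM use TMM library sizes, standard errors are the log2 fold change over the root of F, and intervals are 95%. Named were all members and, in each other list, the 3 genes with the smallest p against T-REx cells, all genes of the HSP70, endoplasmic reticulum and heat shock factor lists, the 2 pseudogenes with most counts, and the 2 genes most like each member. Neighbours were the 10 tested genes on either side.

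As alternatives, DESeq2 1.42.0 was run, and edgeR with RLE scaling, with all genes kept, with a minimum of 10 counts per library, on the 2 compared lines alone, with the replicate block, with each library left out, with HSPA1A and HSPA1B summed, and with pseudogene counts added. Figures and sequence tables were made with Python 3.11.15 and matplotlib 3.10.9.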

Additional observations from a re-analysis of the deposited data

Results flagged for a closer look

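7 members differed between TC4-2A and TL4-2A cells in the direct edgeR test, where 35.4% of all 19473 genes tested did. HSPA1B was higher in TC4-2A cells by 0.89 on the log2 scale, HSP90AB1 by 0.28 and HSP90AA1 by 0.11, each with all 3 TC4-2A libraries above all 3 TL4-2A libraries. HSPA1A was higher by 1.01, from few counts, by 0.61 without TL4-2A replicate 2 and by 1.44 without TL4-2A replicate 1, and this call was lost with DESeq2 (adjusted p = 0.161). HSPB1 was lower in TC4-2A cells by -0.33, HSPD1 by -0.40 and HSPE1 by -0.41, again in all 3 against all 3 libraries. For HSPD1 and HSPE1 18 of 20 neighbouring genes were lower too, in overlapping sets that hold the other gene of the pair. HSPA1B and HSP90AB1 passed the test against T-REx cells in opposite directions in the 2 lines.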

How the results depend on the processing

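Of the 30 tests of members, 25 kept their side of the threshold under each of the 17 alternatives that gave a value and 5 changed side, and no called value changed sign. Values near 0 that were never called crossed it in HSPE1 in TC4-2A against T-REx cells (-0.02 to 0.11), HSP90AA1 in TL4-2A against T-REx cells (-0.02 to 0.02) and HSPH1 in TC4-2A against TL4-2A cells (-0.01 to 0.01). The 5 were HSPA1A in each of the 3 comparisons, HSPB1 in TL4-2A against T-REx cells, and HSPA8 in TC4-2A against TL4-2A cells, which was called with RLE scaling (adjusted p = 0.0498), in a fit of the 2 lines only (adjusted p = 0.015), with DESeq2 (adjusted p = 0.0225) and without T-REx replicate 1, T-REx replicate 2 or TC4-2A replicate 1 (adjusted p = 0.0254, 0.04 and 0.0402). HSPA1A in TL4-2A against T-REx cells was called with no expression filter (adjusted p = 0.000404). The cause was not tested. Leaving out 1 library at a time gave between 5 and 6 members higher in TC4-2A against T-REx cells and 0 lower, between 3 and 4 higher and 2 and 3 lower in TL4-2A against T-REx cells, and 4 higher and between 3 and 4 lower in TC4-2A against TL4-2A cells. The log2 fold change of HSPA1A in TC4-2A against T-REx cells ran from 0.26 to 0.87, in TL4-2A against T-REx cells from -0.90 to -0.08 and in TC4-2A against TL4-2A cells from 0.61 to 1.44, and that of HSPA1B in TC4-2A against T-REx cells from 0.30 to 0.34. DESeq2 called 3995 genes in TC4-2A and 6542 in TL4-2A against T-REx cells, where edgeR called 5607 and 8633.

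No pairing by replicate number was visible: deviations of libraries with the same number had correlations between -0.029 and 0.03. A shared effect small beside the spread between libraries would not show in these values, so that they cannot exclude a pairing. The replicate block moved the genes called in TC4-2A against T-REx cells to 5703, and it changed 1 call of a member, HSPA1A in TL4-2A against T-REx cells (adjusted p = 0.043). For 49 other named genes, 15 of these alternatives were run after seeing the data, and 21 of 98 tests changed side in at least 1 of them, with 0 reversed. HSPA1A, HSPB1 and HSPE1 had the fewest counts among the members, and HSPB8 had 42 or fewer in each library, which limits the precision of its size.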
